A study of Mus musculus with 25 samples.

Results

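Odf1, Odf2, Odf3, Odf4, Smcp and Oaz3 were taken by gene symbol from the count tables of mouse testis, where all 6 were found among 29244 symbols in 25 libraries. They were listed by name, for the fibers and the capsule of the sperm tail. Over all libraries Smcp held 255776 transcripts, Odf2 141031, Oaz3 91118, Odf4 15324, Odf1 13371 and Odf3 12604, counted as unique molecular identifiers (UMIs, 1 per captured mRNA molecule). A level is given here in CPM, counts per 1000000 UMIs.

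The sperm tail carries outer dense fibers, stiff cytoskeletal rods that run beside the microtubule axoneme through the midpiece and principal piece, and in the midpiece the mitochondria are wrapped in a helical sheath with a cysteine-rich capsule. Genes for these structures are transcribed in haploid spermatids, and many of their mRNAs are stored and translated only when the tail is assembled. ODF1 is a main fiber protein related to small heat shock proteins. ODF2 is the other main fiber protein and, as cenexin, also a part of centrioles in somatic cells. ODF3 and ODF4 are sperm tail proteins that were named after the fibers. SMCP is the cysteine-rich protein of the mitochondrial capsule. OAZ3 is the germ cell antizyme, an inhibitor of ornithine decarboxylase, which makes polyamines.

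The study dissociated testes and captured single cells by Drop-seq, in which each droplet holds a cell and a barcoded bead that captures the 3′ ends of mRNAs. The wild-type mice were C57BL/6 males. The 9 libraries WT3 to WT11 came from testes dissociated mechanically at ages from 3 months 1 day to 9 months 14 days, while WT1 (3 months 21 days) and WT2 (4 months 2 days) came from testes digested with collagenase and trypsin. The 6 Mlh3-/- libraries (B6;129 per the labels, B6.129 in the methods, from 2 months 21 days to 8 months 30 days) lack a mismatch repair protein needed for meiotic crossovers. The 2 Cul4a-/- libraries (B6;129, 1 month 18 days and 1 month 21 days) lack a ubiquitin ligase scaffold. The 2 CNP libraries (C57BL/6, 2 months 14 days and 2 months 16 days) carry a CNP eGFP BAC TRAP transgene, and the study's own sample list gives the ages of the Cul4a-/- and CNP mice the other way round. All mutant libraries were mechanical, so the 9 mechanical wild-type libraries were their controls in every comparison. The labels give no 129 background for the controls, so in Mlh3-/- and Cul4a-/- genotype and background cannot be told apart. By either listing of their ages, the Cul4a-/- and CNP mice were younger than all 9 controls. In these strains genotype and age cannot be told apart. The 4 sorted libraries held Pouf51-EGFP spermatogonia (C57BL/6 per the labels, while the methods name a B6;CBA Pou5f1-EGFP reporter line, 7 days after birth, enzymatic, GFP-positive cells from pooled testes of several mice) and primary spermatocytes, secondary spermatocytes and spermatids of wild-type C57BL/6 mice (2 months 21 days, mechanical, sorted by DNA content).

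Libraries held between 107117 and 9745302 UMIs, and after filtering 36622 cells remained. Both Cul4a-/- libraries (9691555 and 9745302 UMIs) were deeper than every other library. WT1 had 102 barcodes and WT2 598, so the enzymatic group rests on 700 barcodes against 25423 in the mechanical wild-type group. Sequencing was on a MiSeq for WT1, WT3, Mlh3_1, Mlh3_2 and the 3 sorted adult libraries. The library sorted as secondary spermatocytes went against its label. Its summed elongating spermatid markers reached 52646 CPM, above the 23804 to 45868 CPM of unsorted mechanical wild-type testes, and 94.4% of its germ cells that could be named fell in spermatid classes. Over whole libraries, the knocked-out genes did not mark the knockouts in these 3′ counts. Mlh3 stood at 26.2 to 86.5 CPM in the libraries labelled Mlh3-/- and at 10.7 to 72.9 CPM in wild-type, and Cul4a at 49.0 and 54.5 CPM in the libraries labelled Cul4a-/- and 5.60 to 45.7 CPM in wild-type. Where the deleted parts lie relative to the 3′ ends is not given in the sources used here, and whole libraries differ in their cell types, so these levels check nothing. The study itself reports that Mlh3 was differentially expressed between clustered Mlh3-/- and wild-type cells. Libraries shared 1143 barcodes over 300 pairs, at most 1.35% of the smaller library of a pair, where 265.4 would be shared by random barcodes of that length.

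In the GENCODE annotation of GRCm38, Odf1 lies at chr15:38219203-38226735 on the plus strand, Odf2 at chr2:29889221-29931746 (plus), Odf3 at chr7:140847805-140851018 (plus), Odf4 at chr11:68921835-68927081 (minus), Smcp at chr3:92583867-92588997 (minus) and Oaz3 at chr3:94432414-94443915 (minus). Smcp and Oaz3 thus share chromosome 3. Oaz3 overlaps Mrpl9 and Tdrkh on the other strand, Odf2 overlaps Gm23865 and Odf3 overlaps Gm45785. Whether the counting used strand is not given in the sources used here, so reads of Oaz3 and its neighbours may have been mixed. Promoter windows from 250 bases before to 50 bases after an annotated start (RefSeq, GRCm38.p6) were found for 4 of the 6 genes. They are shown because Odf2 and Smcp were the opposite ends of the pattern described below, Odf2 being detected in every cell class and Smcp at 0 or close to it in the meiotic mutant. Capitals mark matches to the motifs searched on both strands, which were the cAMP response element core TGACG, the X-box core GTTGCC, the TATA box TATAAA and the CCAAT box CCAAT.
Odf2, first of 4 starts, chr2:29889470-29889769, plus strand: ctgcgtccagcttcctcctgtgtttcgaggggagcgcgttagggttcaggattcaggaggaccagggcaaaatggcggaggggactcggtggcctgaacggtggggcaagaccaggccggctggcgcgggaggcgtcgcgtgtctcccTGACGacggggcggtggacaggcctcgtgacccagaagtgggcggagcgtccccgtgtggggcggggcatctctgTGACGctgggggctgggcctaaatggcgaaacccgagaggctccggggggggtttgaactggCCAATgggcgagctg
Odf3, chr7:140847666-140847965, plus strand: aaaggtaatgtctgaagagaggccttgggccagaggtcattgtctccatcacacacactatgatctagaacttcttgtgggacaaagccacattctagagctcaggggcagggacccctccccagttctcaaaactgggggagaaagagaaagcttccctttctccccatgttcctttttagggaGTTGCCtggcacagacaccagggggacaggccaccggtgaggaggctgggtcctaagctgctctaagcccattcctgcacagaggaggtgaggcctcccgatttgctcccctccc
Odf4, chr11:68927032-68927331, minus strand: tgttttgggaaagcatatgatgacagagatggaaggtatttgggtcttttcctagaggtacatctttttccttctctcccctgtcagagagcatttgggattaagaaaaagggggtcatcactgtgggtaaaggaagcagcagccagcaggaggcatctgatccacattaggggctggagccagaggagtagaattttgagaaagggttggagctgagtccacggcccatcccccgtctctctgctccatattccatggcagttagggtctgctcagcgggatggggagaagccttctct
Smcp, chr3:92589024-92589323, minus strand: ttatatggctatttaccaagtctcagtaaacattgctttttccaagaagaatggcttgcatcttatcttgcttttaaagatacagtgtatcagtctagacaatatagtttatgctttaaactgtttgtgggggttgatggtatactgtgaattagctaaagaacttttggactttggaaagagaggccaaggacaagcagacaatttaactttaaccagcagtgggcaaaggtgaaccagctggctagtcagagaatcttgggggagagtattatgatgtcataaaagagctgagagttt

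The Odf2 window held 26 CG dinucleotides and 68% G and C, the Odf3 window 2 and 55.3%, the Odf4 window 3 and 50.7%, and the Smcp window 0 and 38%. Over 32817 promoter windows of the same length the medians were 7 CG dinucleotides and 52.7%. In Odf2 TGACG began at -102 and -27 from the start, and CCAAT at 36. GTTGCC began at -65 in Odf3. TGACG on either strand was in 20.8% of all windows, GTTGCC in 12.5%, TATAAA in 13.6% and CCAAT in 37.4%. The windows of Odf4 and Smcp held none of the 4, which says only that these letters are not in them.

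The first question was at which stage of sperm formation each gene is expressed. Cells were clustered without the 6 genes and the pathway genes named later, and clusters were called by marker genes. The germ cell classes, from early to late, were spermatogonia-like and leptotene/zygotene-like, then cells resembling pachytene spermatocytes (pachytene-like) and cells in the meiotic divisions (meiotic division-like), and last the round and the elongating spermatid-like cells. Counts were then summed per library and class. Clusters that could not be named held 16628 of the 24465 kept cells of mechanical wild-type (68%), 36.1% of those of Cul4a-/-, 41.4% of Mlh3-/- and 70.6% of CNP, so values by class rest on the remaining cells. Of the unnamed wild-type cells 63.65% had a UMI of Smcp when each cell was thinned to 200 UMIs. In mechanical wild-type testes all 6 genes were higher in meiotic division-like than in pachytene-like cells, and 5 of them rose again into round spermatids. Pachytene-like and meiotic division-like levels of Smcp, Oaz3, Odf1, Odf2 and Odf3 had means below those of Sertoli-like cells, which are given with the shares of cells. From round to elongating spermatids Odf1, Odf2, Odf4, Smcp and Oaz3 rose while Odf3 fell.

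**Figure D1:**
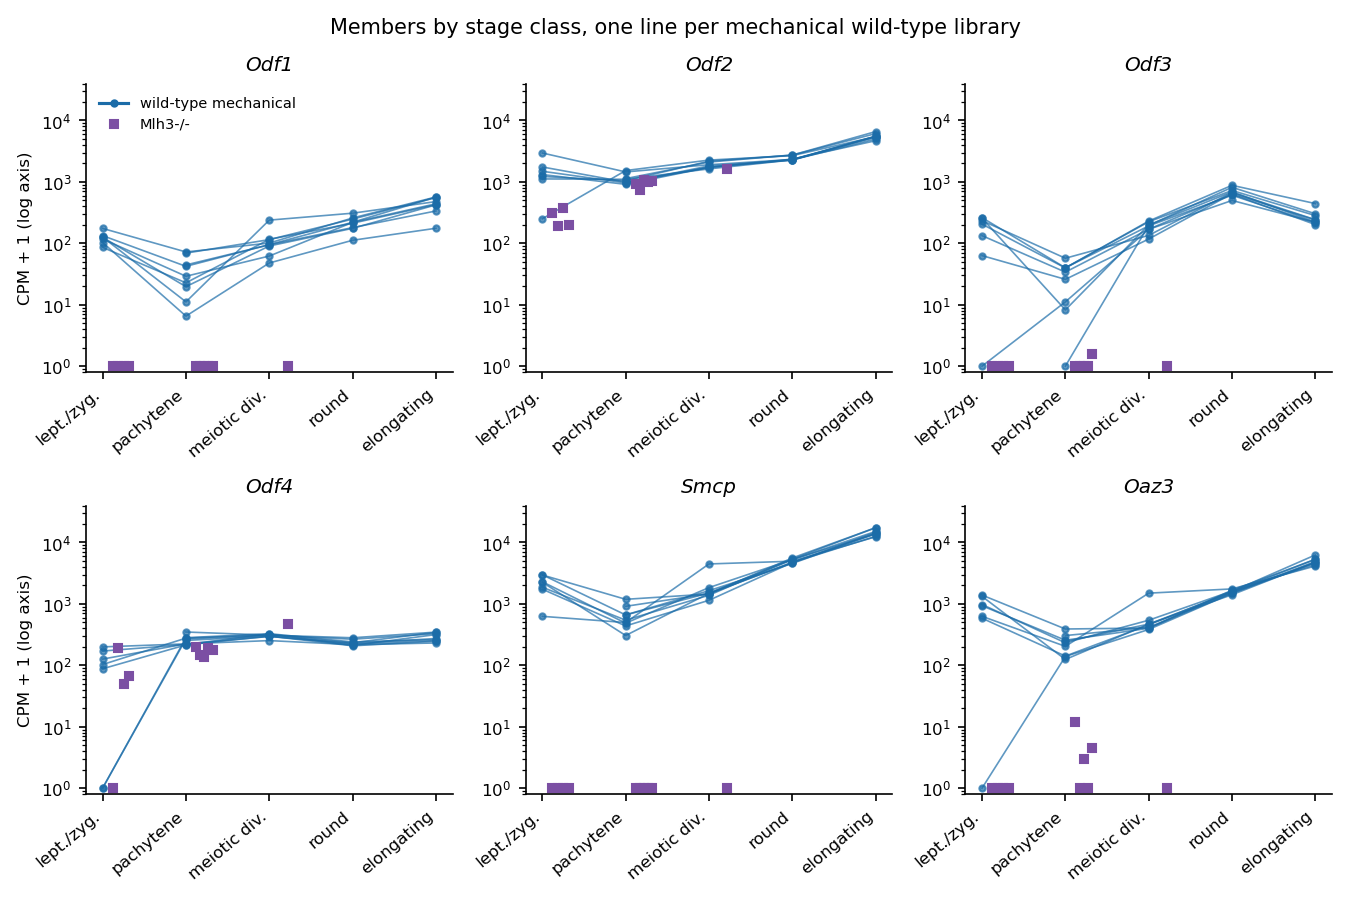
Level of each gene (CPM + 1, log axis) by stage class, with a blue line for each mechanical wild-type library with at least 10 cells of the class and purple squares for Mlh3-/- libraries, shifted to the right of their class. Smcp climbs from a mean of 631 CPM in pachytene-like to 14585 CPM in elongating spermatid-like cells of wild-type, whereas the Mlh3-/- squares of Odf1 and Smcp lie at 0.

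Smcp stood at 304, 542 and 1186 CPM (lowest, median and highest of 9 libraries) in pachytene-like cells. It stood at 1144, 1486 and 4469 CPM in meiotic division-like cells, at 4550, 4951 and 5588 CPM in round and at 12379, 14074 and 17398 CPM in elongating spermatid-like cells. The pachytene and meiotic ranges overlapped, and each later range lay wholly above the one before. Every library rose at each of the 3 steps. The log2 changes were 2.01 (SE 0.22, adjusted p = 1.25e-08), 1.90 (SE 0.18, adjusted p = 5.62e-10) and 1.99 (SE 0.17, adjusted p = 1.85e-10) by edgeR's quasi-likelihood test with library as a block and Benjamini-Hochberg adjustment over 16630 genes, which holds for all stage values that follow. Oaz3 had the same course, with medians of 232, 454, 1566 and 4793 CPM in the 4 classes. Its changes were 1.71 (SE 0.21, adjusted p = 2.02e-08), 1.99 (SE 0.14, adjusted p = 4.21e-14) and 2.11 (SE 0.13, adjusted p = 1.52e-15), and only the elongating range stood clear of the one before it.

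Of the fiber proteins, Odf2 was already well detected in pachytene-like cells at 912, 1043 and 1528 CPM. It rose to a mean of 1895 CPM ± 229 (SD, n = 9) in meiotic division-like, 2436 ± 209 in round and 5515 ± 563 in elongating spermatid-like cells, with no overlap between any neighbouring classes. The changes were 1.32 (SE 0.09, adjusted p = 9.87e-50), 0.69 (SE 0.08, adjusted p = 1.17e-18) and 1.63 (SE 0.08, adjusted p = 1.81e-101). Odf1 was near the limit of detection in pachytene-like cells, at 5.52, 28.0 and 71.3 CPM, where the 9 libraries together held 35 of its UMIs. It reached 440 CPM ± 126 (SD, n = 9) in elongating spermatid-like cells and was higher in the later class in 9 of 9 libraries at each step, although neighbouring ranges overlapped. Its changes were 2.10 (SE 0.23, adjusted p = 5.95e-19), 1.46 (SE 0.11, adjusted p = 4.25e-39) and 1.51 (SE 0.09, adjusted p = 2.63e-59).

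Odf3 was the gene with a peak in round spermatids. It stood at 0, 32.9 and 56.1 CPM in pachytene-like, at 116, 191 and 229 CPM in meiotic division-like, at 497, 673 and 878 CPM in round and at 201, 239 and 443 CPM in elongating spermatid-like cells. None of these neighbouring ranges overlapped, and round exceeded elongating in 9 of 9 libraries. It changed by 3.12 (SE 0.21, adjusted p = 1.55e-49), by 2.24 (SE 0.09, adjusted p = 9.28e-142) and then by -0.95 (SE 0.09, adjusted p = 2.75e-26). Odf4 stayed between 207 and 347 CPM over all 4 classes. It rose by 0.87 (SE 0.12, adjusted p = 1.19e-12) into meiotic division-like cells and by 0.76 (SE 0.10, adjusted p = 1.13e-14) from round to elongating spermatid-like cells. By library totals these steps were 0.29 (adjusted p = 0.0217) and 0.31 (adjusted p = 0.00112), and in CPM the means went from 256 to 302 and from 233 to 288, with overlapping ranges. Between these steps its CPM was lower in round than in meiotic division-like cells in 9 of 9 libraries (means 233 and 302 CPM), but the direction depended on the scaling, with a log2 change of -0.09 (adjusted p = 0.458) by edgeR with TMM normalization, -0.39 (adjusted p = 4.27e-06) by edgeR with library totals and 0.29 (adjusted p = 5.2e-05) by DESeq2.

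The 6 of 6 higher at the first step stood against 31.6% of all genes tested (45.5% in either direction), the 5 of 6 at the second against 25.6% (51.3%), and the 5 higher and 1 lower at the third against 15.9% and 20.1% (36% in either direction). The members' median changes were 1.86, 1.68 and 1.57 beside 0.55, -0.09 and -0.04 over all genes. The scaling moved these medians of all genes, from 0.55 to 0.09 with library totals and -0.38 with DESeq2 at the first step, and from -0.04 to -0.43 and 0.36 at the third. Of the members, Odf4 in round spermatids was the one whose direction turned. In WT3, 18 meiotic division-like cells gave 4469 CPM of Smcp and 1494 CPM of Oaz3 while the other 8 libraries gave 1144 to 1841 and 382 to 541 CPM. Elongating spermatid markers in that class summed to 3986 to 18839 CPM over the libraries. Cluster 14, with 34.2% of the 1961 meiotic division-like cells of these libraries, scored almost as high for round spermatids and carried part of the first rise. Over all libraries it held Odf3 at 289 CPM and Smcp at 2317 CPM, against 27.7 to 250 and 571 to 1230 CPM in the other 5 clusters of the class. Without it all 6 genes were still called higher at the first step, by smaller changes of 1.84 for Odf3 (adjusted p = 3.16e-12, edgeR quasi-likelihood, Benjamini-Hochberg), 0.875 for Smcp and 0.72 for Oaz3 (adjusted p = 5.45e-07), and the steps into round spermatids grew to 3.54, 3.06 and 3.01. No count of members called at a step changed when any 1 library was left out.

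Leptotene/zygotene-like cells of wild-type, present in 7 libraries with 10 to 22 cells each, gave higher means than pachytene-like cells of the same libraries for Smcp (2098 against 587 CPM), Oaz3 (832 against 211 CPM), Odf1 (123 against 28.1 CPM), Odf3 (164 against 29.8 CPM) and Odf2 (1442 against 1141 CPM). The groups did not overlap for Odf1 and did for the other 4. Odf4 went the other way in 7 of 7 libraries, from 97.4 to 243 CPM. The 10 elongating spermatid markers summed to 6218 to 24922 CPM in these cells and to 2172 to 5281 CPM in pachytene-like cells of wild-type, and the part of spermatid RNA in the values was not tested. In leptotene/zygotene-like cells of the 4 Mlh3-/- libraries that had 10 or more, where those markers summed to 49.1 to 95.2 CPM, Odf1, Odf3, Smcp and Oaz3 were at 0 UMIs and Odf2 at 190 to 369 CPM.

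Within the elongating spermatid-like class the genes differed among its 8 clusters, pooled over all libraries. Cluster 8, led by Prm2, Car2, Tppp2, Spem1 and 1700012A03Rik, held the highest levels of Smcp (31761 CPM), Oaz3 (13787 CPM) and Odf1 (1367 CPM). In cluster 26 of the same class these stood at 8180, 2932 and 382 CPM. Odf3 ran the other way, at 523 CPM in cluster 26, 83.0 CPM in cluster 8 and 66.9 CPM in cluster 10, against 725 CPM in round spermatid-like cluster 13. Odf2 was highest in cluster 10 (7147 CPM) and lowest in cluster 23 (2796 CPM), a cluster whose leading genes over all libraries were hemoglobin genes (Hbb-bs, Hba-a1, Hbb-bt and Hba-a2), with no listed elongating spermatid marker among its top 10.

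The sorted libraries gave 1 value each, with exact Poisson intervals that cover counting error only. In sorted spermatogonia Odf3, Odf4 and Oaz3 had 0 UMIs of 1168498, which allows up to 3.16 CPM by these intervals, Odf1 had 2 UMIs and Smcp 1. Odf2 alone was clearly detected there, with 84 UMIs or 71.9 CPM (interval 57.3 to 89.0). In the sorted primary spermatocytes, secondary spermatocytes and spermatids Smcp stood at 1400, 4709 and 7025 CPM, Odf1 at 65.3, 141 and 219 CPM, Odf2 at 1550, 3160 and 3538 CPM and Oaz3 at 485, 1645 and 2420 CPM. The intervals of neighbouring sorts did not overlap for Smcp and Oaz3. Those of Odf1 overlapped at both steps (26.3 to 135, 99.4 to 195 and 164 to 288 CPM), and those of Odf2 at the last (2948 to 3382 and 3302 to 3785 CPM). Odf3 stood at 112, 435 and 346 CPM and Odf4 at 289, 210 and 202 CPM. The primary spermatocyte sort carried spermatid RNA too, with elongating spermatid markers at 5891 CPM against 2172 to 5281 CPM in pachytene-like cells of wild-type, and 5 of its 14 germ cells that could be named were spermatid-like. The highest Odf3 was in the library sorted as secondary spermatocytes, which held spermatid-like cells as given above, and its interval (359 to 523) overlapped that of spermatids (275 to 429).

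**Figure D2:**
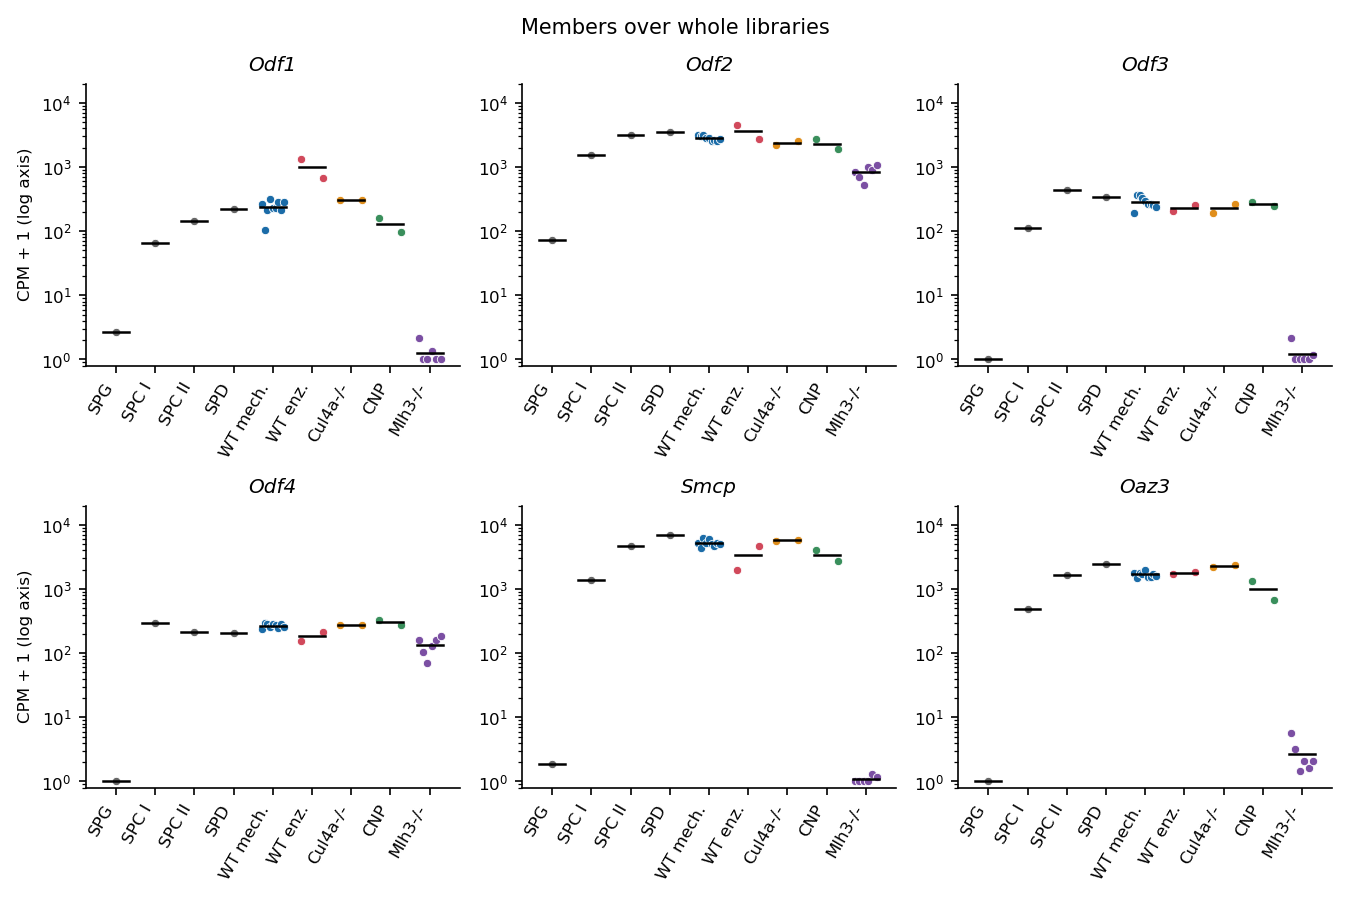
Level of each gene over all barcodes of a library (CPM + 1, log axis), with a point per library and a bar at the mean of a group. SPG, SPC I, SPC II and SPD are the sorted spermatogonia, primary and secondary spermatocytes and spermatids, and the 6 Mlh3-/- libraries lie near 0 for Odf1, Odf3, Smcp and Oaz3 but between 528 and 1061 CPM for Odf2.

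Shares of cells with a UMI were compared after thinning every cell to 200 UMIs, since depth differed. In mechanical wild-type, Smcp was seen in 88.5% of 3062 elongating spermatid-like cells (98.0% unthinned, median 761 UMIs per cell), 62.2% of 2058 round spermatid-like cells (median 1272) and 10.7% of 441 pachytene-like cells (median 1799). Odf2 was seen in 62.7%, 38.2% and 19.3% of these cells and Oaz3 in 58.3%, 26.4% and 3.40%. Sertoli-like cells, somatic cells that should lack Smcp and Oaz3, gave 55.9% and 22.6% in wild-type (93 cells, median 593 UMIs). Their elongating spermatid markers summed to 20946 to 52806 CPM, and their part in these shares was not tested. The shares of Smcp, Oaz3, Odf1, Odf2 and Odf3 in pachytene-like and in meiotic division-like cells lay at or below those of Sertoli-like cells. So did those of Odf1 in round spermatid-like cells (4.13% against 4.30%) and of Odf3 in elongating spermatid-like cells (4.67% against 5.38%). Those markers summed to 2172 to 5281 CPM in pachytene-like cells, so Sertoli-like cells set no background for that class. Nor are they a blank for Odf2, which stood at 380 to 807 CPM in Sertoli-like cells of Mlh3-/-. Whether these shares are background was not tested. In CPM, the 4 wild-type libraries with 10 or more Sertoli-like cells held Smcp at 4819 to 7996 against 4550 to 5588 in round spermatid-like cells, Oaz3 at a mean of 2299 against 1570 there, and Odf1 at a mean of 500 against 440 in elongating spermatid-like cells. No background was taken off the levels by stage. In Mlh3-/- testes, where spermatid-like cells were nearly absent, Smcp, Odf1 and Odf3 were seen in 0 of 176 thinned Sertoli-like cells, which allows a share of cells with a UMI of up to 2.07% by counting error alone (exact binomial). In 42.6% of wild-type elongating spermatid-like cells 3 or more of the 6 genes were seen after thinning, against 12.7% of round spermatid-like cells.

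**Figure D3:**
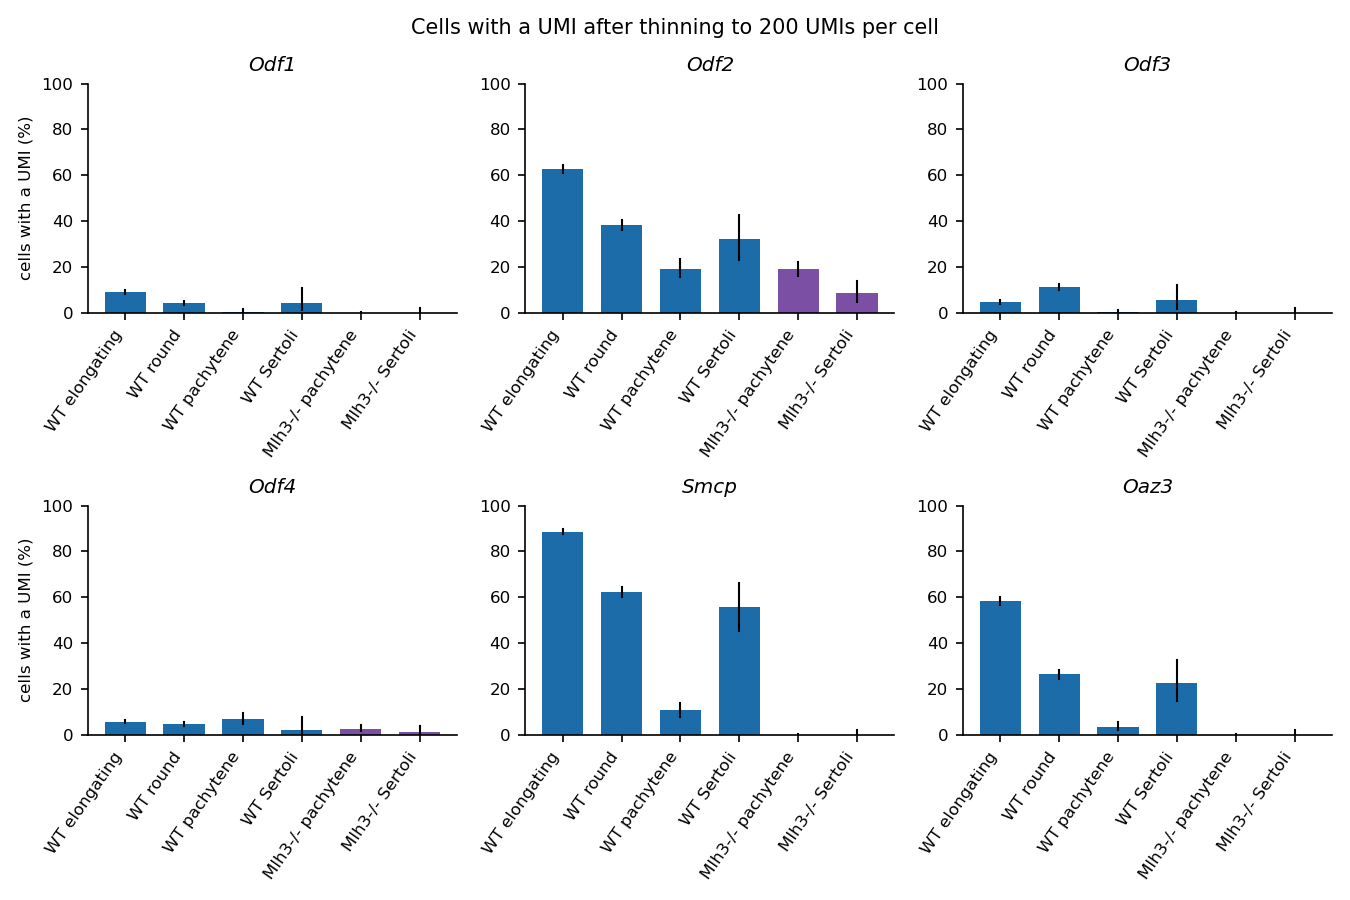
Percent of cells with a UMI of each gene after thinning to 200 UMIs per cell, for mechanical wild-type (blue) and Mlh3-/- (purple) cell classes, with exact 95% binomial intervals that cover counting error only. Smcp reaches 88.5% of wild-type elongating spermatid-like cells and 55.9% of wild-type Sertoli-like cells, but 0 of 671 pachytene-like cells of Mlh3-/-.

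The profiles were compared over 47 class-by-library sums of mechanical wild-type, which share libraries and depth, so correlations are descriptions. Among 6514 genes at 20 CPM or more, the closest to Smcp were Gapdhs (Pearson r = 0.97), the sperm glycolytic enzyme, Spz1 (0.96) and Akap4 (0.96), a main protein of the fibrous sheath. Oaz3 lay closest to Tssk6 (0.95), a spermatid kinase, C12orf54 (0.94) and Wbscr25 (0.94). Odf2 lay closest to 1110017D15Rik (0.93), Ccdc91 (0.92) and 1700009N14Rik (0.92), and Odf3 to Fam221b (0.94), Cypt4 (0.93) and Aptx (0.93). Odf1 had Psma6 (0.85), Luzp1 (0.83) and Prm3 (0.83) nearest, and Odf4 Napa (0.88), Ccdc92 (0.84) and Polb (0.77). Gapdhs and Prm3 were among the elongating spermatid markers listed for naming clusters and were not left out of the clustering. Their likeness over these classes is therefore not independent of how the classes were made. Among the members, Smcp and Oaz3 were most alike (0.87), followed by Smcp and Odf2 (0.85), whereas Odf4 had r between -0.02 and 0.22 with the other 5.

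Genes of the same pathways were read from 4 lists. Of the 35 genes tested 24, 25 and 22 passed at the 3 steps in either direction, or 68.6%, 71.4% and 62.9%, beside 45.5%, 51.3% and 36% of all genes. Of 9 tested genes for fiber proteins and their partners, 6 rose and 0 fell into meiotic division-like cells, 6 rose and 3 fell into round spermatids and 3 rose and 3 fell into elongating spermatids, with list medians of 0.89, 1.09 and -0.21. Odf3l1, a relative of Odf3, rose by 5.06 (adjusted p = 5.74e-78) at the first step and fell by 2.32 (adjusted p = 1.77e-74) at the third, and Tssk4, a spermatid kinase, rose by 4.61 and fell by 2.01. Klc3, the kinesin light chain that binds ODF1 and mitochondria, rose by 4.11 into round spermatids, and Odf3b rose by 2.14 there and by 2.99 into elongating spermatids. Spag4, a nuclear envelope protein that binds ODF1, rose by 2.79 and 2.00 at the first 2 steps. Of 10 mitochondrial sheath and annulus genes 9 rose and 1 fell, then 6 rose and 3 fell, then 3 rose and 4 fell, with medians of 1.86, 0.46 and 0.01. Spata19, a mitochondrial protein of spermatids, rose by 2.25 into round spermatids, and Gpx4, the selenoprotein that hardens the capsule, rose by 1.26 into elongating spermatids, where Gk2 fell by 1.59. Of 9 polyamine genes 2 rose and 1 fell, then 1 rose and 1 fell, then 3 rose and 2 fell, Amd1 falling by 1.97 and 1.95 at the first 2 steps and Azin1, the antizyme inhibitor, rising by 0.91 into round and falling by 1.49 into elongating spermatids. Of 7 genes listed for translational control in spermatids 5 rose and 0 fell, then 0 rose and 5 fell, then 1 rose and 3 fell. The one that rose last was Ybx2, the main mRNA storage protein of germ cells, by 1.08, while Ddx25 fell by 1.08 and Pabpc1 by 0.99. Ybx3 of the same list was also among the pachytene markers listed for naming clusters, so its changes may not be independent of the naming.

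The Mlh3-/- testes addressed what remains of these transcripts when meiosis is not completed. Over whole libraries all 6 genes were lower than in wild-type with no overlap, but to very different extents. The share of all genes without overlap was not counted, and 32.7% of all genes were called lower. Smcp, Odf1 and Odf3 came down to 2 UMIs each over all 6 Mlh3-/- libraries, and Oaz3 to 18, while Odf2 and Odf4 remained well detected. In whole libraries, fewer cells of a type and less RNA per cell cannot be told apart. Spermatid-like cells made 0% to 0.93% of named germ cells in Mlh3-/- and 60.1% to 88.0% in the controls, and the elongating spermatid markers summed to 97.6 to 290 against 23804 to 45868 CPM. The mitochondrial mt-Rnr2 made 3.62% to 11.6% of UMIs in Mlh3-/- and 0.406% to 1.55% in the controls, and 2787 of 11210 Mlh3-/- barcodes passed the cell filters. With those cells only, all 6 genes were again called lower.

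Smcp stood at 4356, 5125 and 6283 CPM (lowest, median and highest) in the 9 controls and at 0, 0 and 0.321 CPM in the 6 mutant libraries. The pooled ratio of wild-type to mutant was 41163 (counting interval 11395 to 339900). For Odf1 it was 1865 (516 to 15406), for Odf3 2250 (623 to 18580) and for Oaz3 1464 (926 to 2470). Odf2 stood at 2530, 2788 and 3203 CPM in controls and at 528, 866 and 1061 CPM in the mutant, a log2 change of -2.52 (SE 0.22, adjusted p = 5.26e-13, edgeR quasi-likelihood, Benjamini-Hochberg over 23168 genes). Odf4 stood at 240 to 292 CPM and at 69.5 to 182 CPM, a change of -1.75 (SE 0.20, adjusted p = 4.98e-10). All members called lower stood against 32.7% of genes called lower and 61.6% called in either direction, with a median of -11.07 over the members and 0 over all genes. Scaling by library totals moved the median of all genes to 0.69 and the changes of Odf2 and Odf4 to -1.76 and -0.99.

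Among pachytene-like cells, the last stage with many cells in Mlh3-/-, the genes split in the same way. Smcp had 0 UMIs in all 5 Mlh3-/- libraries with 10 or more such cells, among 3908093 UMIs pooled over the mutant's pachytene-like cells, against 668 UMIs in wild-type. That is at least 792-fold lower when 3 counts over the group stand for the floor. Odf1 had 0 against 35 UMIs, at least 41.5-fold lower, Odf3 had 1 against 33 (ratio 117, counting interval 19.7 to 4777) and Oaz3 9 against 240 (ratio 94.9, interval 49.2 to 210). These 4 were the members called lower (5 lower by DESeq2), against 6.04% of 13551 genes called lower and 9.59% called in either direction. Elongating spermatid markers summed to 118 to 170 CPM in these mutant cells and to 2172 to 5281 CPM in the wild-type ones, and their part in the result was not tested.

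Odf2 in pachytene-like cells stood at 909, 730, 1079, 999 and 1020 CPM in Mlh3_1, Mlh3_3, Mlh3_4, Mlh3_5 and Mlh3_6 and at 912, 1043 and 1528 CPM in wild-type. The groups overlapped, and the change of -0.19 (SE 0.17, adjusted p = 0.567) did not pass the test. Odf4 stood at 200, 144, 136, 192 and 176 CPM in the same 5 libraries, all below the 214 to 347 CPM of wild-type, with a change of -0.52 (SE 0.19, adjusted p = 0.0593) that was past the threshold with DESeq2 (adjusted p = 0.0074) and 6 other settings of 27. After thinning, Odf2 was seen in 18.9% of 671 mutant and 19.3% of 441 wild-type pachytene-like cells, and Odf4 in 2.68% and 6.80%. In Mlh3-/- somatic cells Odf2 was present, at 119, 234 and 755 CPM (lowest, median and highest of 6 libraries) in Leydig-like cells and at 380 to 807 CPM in the 4 libraries with 10 or more Sertoli-like cells. The pooled Leydig-like level of 552 CPM rested on Mlh3_1 and was 205 CPM without it. Odf4 had 0 UMIs in 3 of the 6 Leydig-like sums and 124 CPM in Mlh3_1, and its pooled 81.8 CPM came to 9.475 CPM without that library, while Sertoli-like cells gave 45.0 to 85.0 CPM. Pooled Odf2 in the mutant ran from 216 CPM in spermatogonia-like and 324 CPM in leptotene/zygotene-like to 1009 CPM in pachytene-like and 1484 CPM in meiotic division-like cells, and Odf4 from 14.0 and 59.9 to 166 and 436 CPM. The last class held 31 mutant cells, of which 20 in Mlh3_6.

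Of the 36 pathway genes tested over whole Mlh3-/- libraries 28 passed, or 77.8% beside 61.6% of all genes, with 5 higher (28.9% of all genes) and 23 lower (32.7%). In the separate lists, 7 of 9 fiber partners and 9 of 10 sheath genes fell, with 0 rising. Odf3l1 and the sheath gene Tbc1d21 had 0 UMIs in the mutant, at least 768-fold and 877-fold lower. Of 10 polyamine genes 5 rose and 2 fell, beside 28.9% and 32.7% of all genes. The largest rises were in Sat1 (2.97, adjusted p = 4.23e-09), Smox (1.98, adjusted p = 1.08e-06) and Amd1 (1.66, adjusted p = 1.10e-05), the first 2 of which break down polyamines. Of 7 translation genes 5 fell, Ybx2 by 1.23, Pabpc2 by 1.16 and Ddx25 by 1.10. By library totals these were -0.46 (adjusted p = 0.0224), -0.42 (adjusted p = 0.0178) and -0.34 (adjusted p = 0.0559), so that the call of Ddx25 was lost. List medians were -4.79, -1.999, 0.69 and -0.9998 beside 0 over all genes. In pachytene-like cells 4 of 9 fiber partners fell, 3 of 10 sheath genes fell and 1 rose, and none of the 9 polyamine and 7 translation genes tested passed. Together 8 of 35 passed there, or 22.9% beside 9.59% of all genes, and 7 of them were lower (6.04% of all genes).

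Cul4a-/- and CNP testes do make spermatids, and here the genes were compared within spermatid-like classes. In Cul4a-/-, Odf1 and Oaz3 were higher in round spermatid-like cells, and Odf1, Oaz3 and Smcp in elongating spermatid-like cells. In CNP no member passed in the 3 classes tested (pachytene-like, round and elongating spermatid-like), except under alternatives given with each. Both sets share the same 9 controls. The elongating spermatid markers moved with these calls, summing to 162420 and 163190 CPM in elongating spermatid-like cells of Cul4a-/- against 85396 to 129280 CPM, without overlap, and to 23680 and 29281 CPM against 16311 to 27619 CPM in round ones. Their part was not tested.

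**Figure D4:**
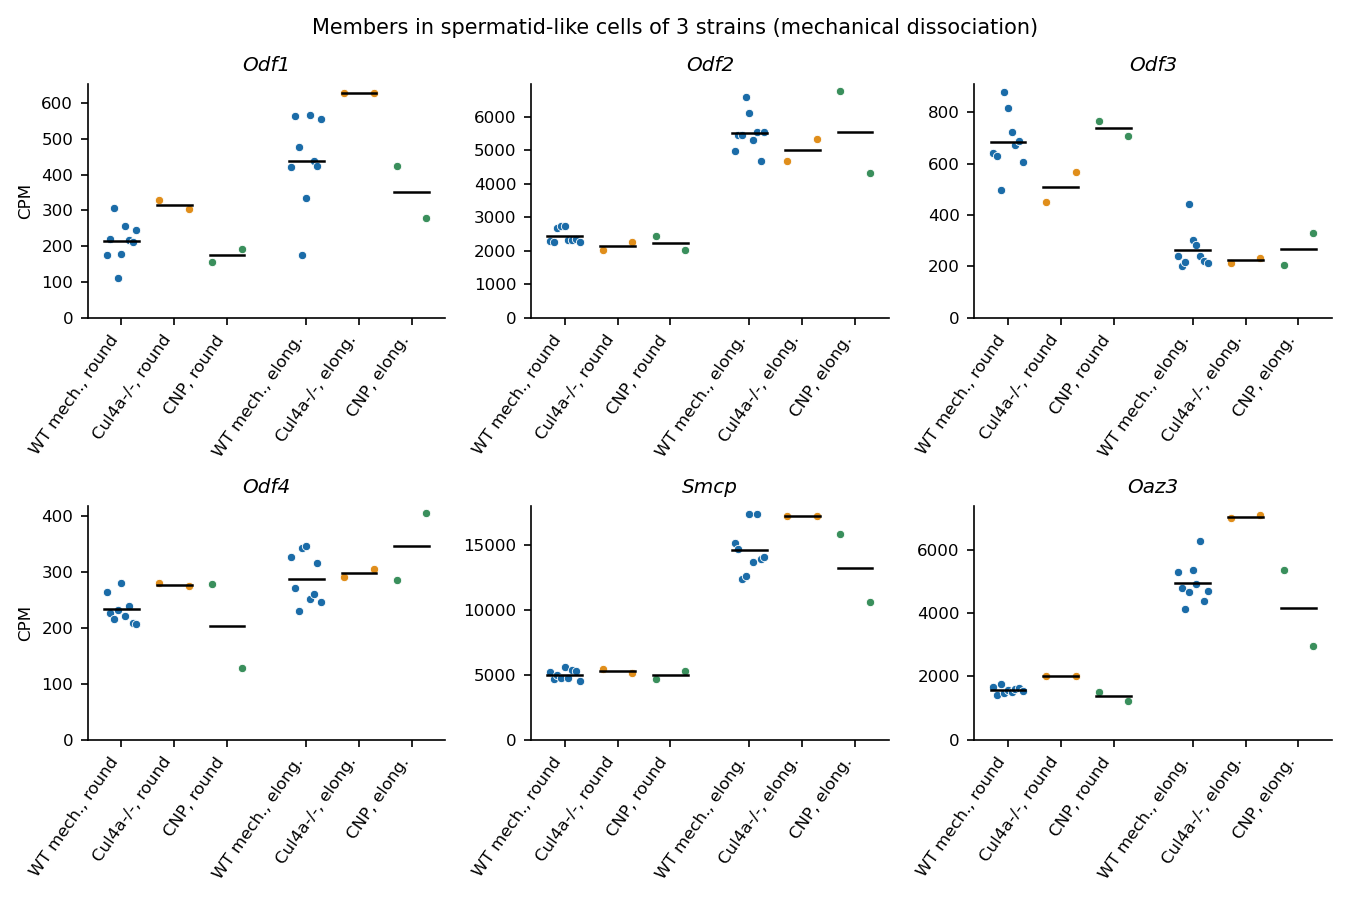
Level of each gene (CPM) in round and elongating spermatid-like cells, with a point per library and a bar at the mean, for mechanical wild-type (blue), Cul4a-/- (orange) and CNP (green). Oaz3 in both Cul4a-/- libraries (6986 and 7098 CPM) lies above all 9 wild-type libraries in elongating spermatid-like cells, and the 2 CNP libraries (5351 and 2959 CPM) lie far apart.

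In elongating spermatid-like cells Oaz3 stood at 6986 and 7098 CPM in Cul4a-/- and at 4138, 4793 and 6263 CPM in wild-type, without overlap, a change of 0.82 (SE 0.18, adjusted p = 4.27e-04, edgeR quasi-likelihood, Benjamini-Hochberg). Odf1 stood at 627 and 629 CPM against 175, 439 and 567 CPM, again without overlap, a change of 0.82 (SE 0.19, adjusted p = 5.72e-04). Smcp stood at 17197 and 17235 CPM against 12379, 14074 and 17398 CPM. Its groups overlapped and its change was 0.55 (SE 0.19, adjusted p = 0.045), which was lost in 12 of 21 settings, with 0.24 (adjusted p = 0.363) by library totals. These 3 of 6 stood against 6.84% of 14318 genes called higher (8.4% in either direction), with a median of 0.46 over members and 0.18 over all genes, which became -0.12 by library totals and 0.08 by DESeq2. Odf2, Odf3 and Odf4 did not pass, at 0.18, 0.10 and 0.36. The sign for Odf2 and Odf3 turned with the scaling, since their mean CPM was lower in Cul4a-/- (5003 against 5515 CPM and 224 against 262 CPM), with changes of -0.14 and -0.22 by library totals. Without Cul4a_2 none of the 3 passed (Odf1 adjusted p = 0.0704, Oaz3 adjusted p = 0.0583), and by DESeq2 Odf1 did not (adjusted p = 0.149).

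In round spermatid-like cells Oaz3 stood at 2007 and 2015 CPM in Cul4a-/- against 1408, 1566 and 1752 CPM, without overlap (change 0.42, SE 0.12, adjusted p = 0.0097, edgeR quasi-likelihood, Benjamini-Hochberg). Odf1 stood at 329 and 304 CPM against 111, 218 and 308 CPM, just overlapping (change 0.64, SE 0.15, adjusted p = 5.76e-04). These 2 of 6 stood against 11.9% of 16619 genes called higher (15.8% in either direction), and the member median of 0.22 was close to the 0.26 over all genes. Odf3 stood at 451 and 566 CPM against 497 to 878 CPM, a change of -0.37 (adjusted p = 0.0585) that was past the threshold in 8 of 21 settings. By DESeq2 the call of Odf1 was lost (0.55, adjusted p = 0.121), that of Oaz3 held (adjusted p = 0.00594) and Odf3 was called lower (-0.45, adjusted p = 0.0328). Without Cul4a_1 neither call held (Odf1 adjusted p = 0.103, Oaz3 adjusted p = 0.156), and without Cul4a_2 that of Oaz3 was lost (adjusted p = 0.124). The Cul4a-/- cells lay mostly in other clusters than the wild-type ones, with clusters 21, 29 and 36 holding most of its round spermatid-like cells and clusters 25, 32 and 8 most of its elongating ones, where clusters 10, 12 and 8 led in wild-type. Cluster 8 held 19.2% of the elongating spermatid-like cells of Cul4a-/- and 22.3% of those of wild-type. Median depth differed as well, at 1702 and 761 UMIs per elongating spermatid-like cell.

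Over whole Cul4a-/- libraries 0 of 6 passed by edgeR, with 0 at an unadjusted p under 0.05 and 0 by DESeq2, against 4.81% of genes. Oaz3 was the one without overlap, at 2170 and 2371 CPM against 1494 to 1978 CPM (0.36, adjusted p = 0.510). In pachytene-like cells 0 passed by edgeR and by DESeq2 with 1 at an unadjusted p under 0.05, against 0.295% of genes, Odf1 standing at 119 and 59.3 CPM (change 1.44, adjusted p = 0.314). With at least 50 cells per class 3 passed, which were Odf1 (2.95, adjusted p = 0.0142), Smcp and Oaz3. Elongating spermatid markers summed to 8924 and 12382 CPM in those cells, above wild-type. Meiotic division-like cells, which had no planned strain test, gave Odf3 at 27.1 and 32.1 CPM in Cul4a-/- and at 116, 191 and 229 CPM in wild-type, and 97.0% of those Cul4a-/- cells were in cluster 22. That cluster held Odf3 at 27.7 CPM pooled over all libraries. Without cluster 14, Odf3 ran from 23.9 to 145.5 CPM in 8 wild-type libraries and overlapped with Cul4a-/-. Of the pathway genes in round spermatid-like cells, Prkra rose by 1.40 (adjusted p = 1.58e-05), Odf2l by 1.13 (adjusted p = 8.75e-05) and Gpx4 by 0.89 (adjusted p = 7.23e-05), and Hook1, a microtubule linker of the spermatid manchette, fell by 0.72 (adjusted p = 1.99e-05). Of the 34 tested there 7 passed, or 20.6% beside 15.8% of all genes. In elongating spermatid-like cells 5 of 35 passed, or 14.3% beside 8.4% of all genes, and 3 of the 10 sheath genes rose. Among them were Spata19 by 0.63 and Gpx4 by 0.85, although the CPM of Gpx4 in Cul4a-/- (386 and 569) lay within the wild-type range (182 to 586). Gk2 fell by 0.68.

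The CNP libraries were lower over whole testis in Smcp (3983 and 2757 CPM against 4356 to 6283 CPM) and Oaz3 (1346 and 665 CPM against 1494 to 1978 CPM), without overlap, and Odf1 stood at 159 and 97.6 CPM against 103 to 321 CPM. The changes were -0.85 (adjusted p = 0.218), -0.97 (adjusted p = 0.132) and -1.11 (adjusted p = 0.0967) (edgeR quasi-likelihood, Benjamini-Hochberg), so 0 of 6 passed, against 0.863% of genes, while 3 were at an unadjusted p under 0.05. DESeq2 called these 3 lower (adjusted p = 3.55e-04 for Smcp, 0.00153 for Oaz3, 0.0185 for Odf1), and so did the edgeR test without Mlh3_2, whose libraries share the estimate of the spread. The elongating spermatid markers stood at 25260 CPM in CNP_1 and 13715 CPM in CNP_2, against 23804 to 45868 CPM in wild-type. Spermatid-like cells made 64.3% and 49.4% of named germ cells, against 60.1% to 88.0%. CNP_2 lay below both wild-type ranges and CNP_1 within them, and their part was not tested. Odf2, Odf3 and Odf4 overlapped with wild-type.

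In round spermatid-like cells of CNP 0 of 6 passed by edgeR and by DESeq2, with 2 at an unadjusted p under 0.05, against 1% of genes, and the member median was -0.33 beside -0.43 over all genes. In elongating spermatid-like cells 0 passed by either tool, with 3 at an unadjusted p under 0.05, against 0.489% of genes and with medians of -0.41 and -0.94. The median over all genes depended on the scaling, at -0.64 by library totals and 0.21 by DESeq2 in elongating and at -0.25 and 0.08 in round spermatid-like cells. CNP_1 and CNP_2 stood apart there, at 15858 and 10570 CPM for Smcp, 6757 and 4324 CPM for Odf2 and 5351 and 2959 CPM for Oaz3. Without CNP_1, 3 members passed, which were Oaz3 at -1.33 (adjusted p = 4.34e-05, edgeR quasi-likelihood, Benjamini-Hochberg), Smcp at -1.05 (adjusted p = 3.82e-04) and Odf2. In pachytene-like cells 0 passed by edgeR, by DESeq2 or at an unadjusted p under 0.05, against 0.48% of genes, and 2 passed with at least 50 cells per class. Of the pathway genes in CNP, 1 of 36 passed over whole libraries, or 2.78% beside 0.863% of all genes. In round spermatid-like cells 5 of 34 passed, or 14.7% beside 1%, and in elongating ones 2 of 35, or 5.71% beside 0.489%. In pachytene-like cells 2 of 35 passed, or 5.71% beside 0.48%, and all of these genes were lower. So were most genes called in CNP, with 176 lower and 24 higher over whole libraries and 159 and 8 in round spermatid-like cells. The counts were 68 lower and 2 higher in elongating spermatid-like and 63 and 2 in pachytene-like cells. The capsule gene Gpx4 fell in CNP, with changes of -3.22 over whole libraries (adjusted p = 0.013), -4.24 in round (adjusted p = 1.55e-08) and -3.10 in elongating spermatid-like cells (adjusted p = 2.36e-08), its means there being 41.2 CPM against 329 CPM. Pabpc1, the poly(A)-binding protein, fell too, with changes of -1.03 and -1.497 in round and elongating spermatid-like cells.

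The last comparison was between enzymatic and mechanical dissociation of wild-type testes. Odf1 was the member that differed most, at higher levels in both enzymatic libraries over whole testis and in both spermatid classes. Smcp was lower in all 3 comparisons, a call that was lost without WT1 in each and, over whole libraries, in other settings too. Oaz3 did not pass in any of the 3 by edgeR or DESeq2. Odf2 did not pass by edgeR with TMM normalization, the filter of at least 5 counts and both enzymatic libraries in the fit. In round spermatid-like cells its change by that test was 0.38 (adjusted p = 0.152). There it was called higher by DESeq2 (0.53, adjusted p = 0.0245) and by edgeR with library totals (0.47, adjusted p = 0.0387). It was also called higher there by edgeR with TMM and another gene filter (filterByExpr).

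**Figure D5:**
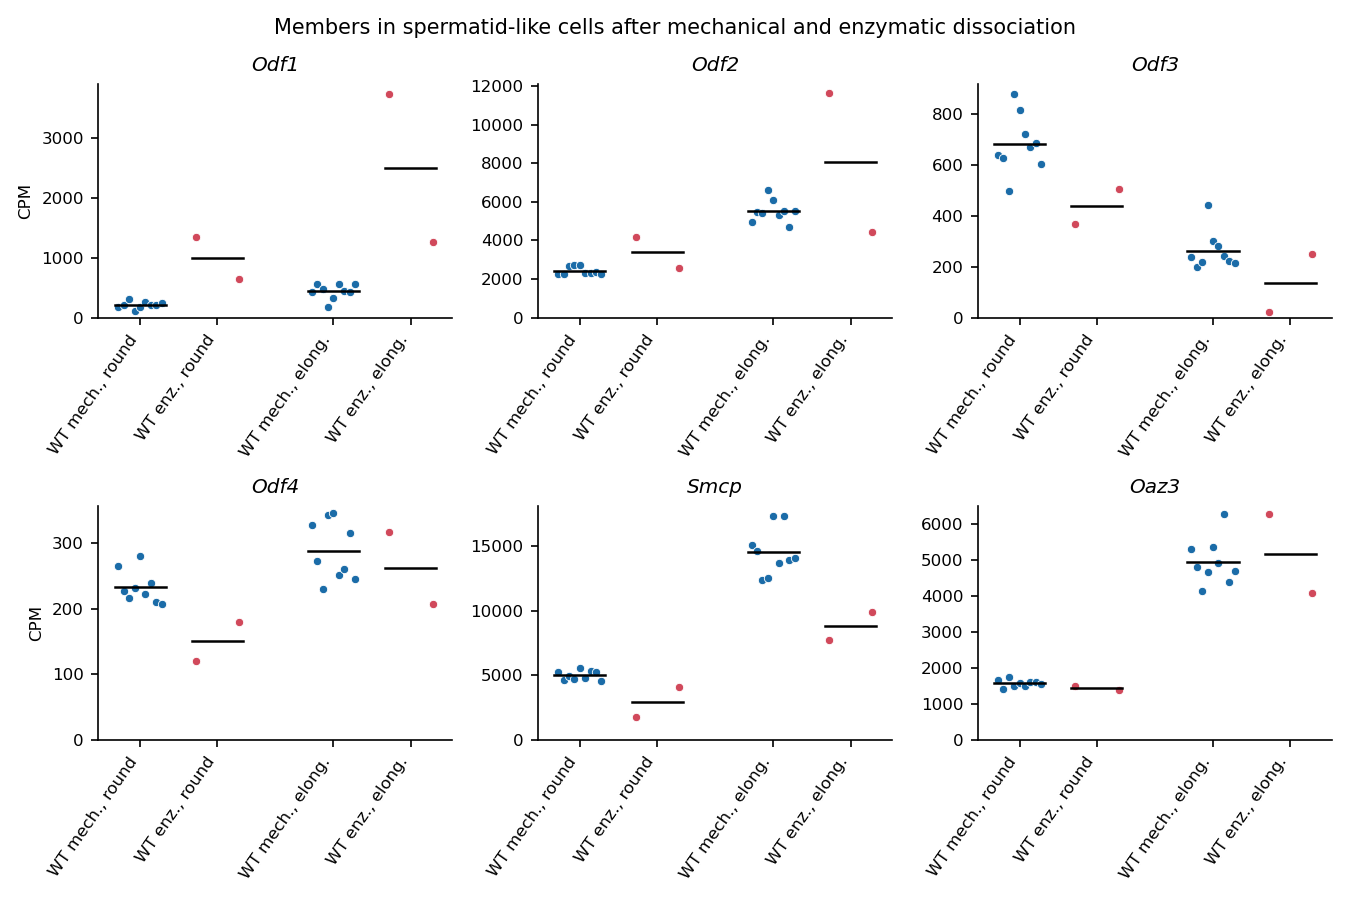
Level of each gene (CPM) in round and elongating spermatid-like cells of wild-type, with a point per library and a bar at the mean, after mechanical (blue, 9 libraries) and enzymatic (red, 2 libraries) dissociation. Odf1 in elongating spermatid-like cells lies at 3727 and 1269 CPM after enzymatic and at 175 to 567 CPM after mechanical dissociation.

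Odf1 stood at 1316 CPM in WT1 and 676 CPM in WT2 over whole libraries, against 103, 230 and 321 CPM in the mechanical ones. In round spermatid-like cells it stood at 1349 and 642 CPM against 111, 218 and 308 CPM. In elongating spermatid-like cells it stood at 3727 and 1269 CPM against 175, 439 and 567 CPM. No groups overlapped, and WT1 was the higher in each. Within round spermatid-like cells the change was 2.11 (SE 0.20, adjusted p = 3.07e-14), and within elongating ones 2.20 (SE 0.20, adjusted p = 1.02e-19), by the edgeR quasi-likelihood test, Benjamini-Hochberg adjusted. That test draws its spread partly from all genes, so these SE and p-values do not measure the distance between WT1 and WT2 alone. Both calls held in every alternative run (17 and 19 settings), including without either enzymatic library. Over whole libraries, where Odf1 was called higher too (adjusted p = 0.0021), the call was lost without WT1 (change 1.45, adjusted p = 0.0609).

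Smcp stood at 1734 and 4076 CPM against 4550, 4951 and 5588 CPM in round and at 7725 and 9938 CPM against 12379, 14074 and 17398 CPM in elongating spermatid-like cells, below all mechanical libraries in both. The changes were -0.83 (SE 0.18, adjusted p = 5.6e-04) and -0.86 (SE 0.19, adjusted p = 8.13e-04, edgeR quasi-likelihood, Benjamini-Hochberg). Without WT1 they were -0.33 (adjusted p = 0.35) and -0.64 (adjusted p = 0.0658). Over whole libraries Smcp (1943 and 4726 CPM) overlapped with mechanical (4356 to 6283 CPM), and its call (-0.72, adjusted p = 0.0385) was lost in 9 of 17 settings, DESeq2 among them (adjusted p = 0.0809). Taking the sequencer as a covariate was another of them. WT1 was the MiSeq library of the enzymatic pair, and within the spermatid classes the part of the sequencer was not tested. Odf4 was lower over whole libraries, at 151 and 211 CPM against 240 to 292 CPM (-0.61, adjusted p = 0.0129, and -0.41, adjusted p = 0.174, without WT1), and this call held by DESeq2 (adjusted p = 0.0183). Odf3 was lower in round spermatid-like cells, at 369 and 507 CPM against 497 to 878 CPM (-0.69, adjusted p = 0.0166, and -0.47, adjusted p = 0.314, without WT1), and this call was lost by DESeq2 (adjusted p = 0.0926) while that of Smcp held (adjusted p = 0.0267). In round spermatid-like cells the round spermatid markers summed to 4680 and 7264 CPM after enzymatic and 8260 to 9372 CPM after mechanical dissociation, without overlap, and the elongating ones to 26154 and 38021 CPM against 16311 to 27619 CPM. Their part in the changes of Odf1, Smcp and Odf3 was not tested.

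WT1 and WT2 were unlike each other in Odf2. In elongating spermatid-like cells it stood at 11655 and 4422 CPM, the first above and the second below the whole mechanical range of 4679 to 6586 CPM, and the change of 0.29 did not pass (adjusted p = 0.566). It was 0.65 (adjusted p = 0.0382) without WT2 and -0.40 (adjusted p = 0.476) without WT1. Oaz3 stood at 6257 and 4072 CPM there and overlapped with mechanical. The 28 round and 28 elongating spermatid-like cells of WT1 carry little depth.

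Over whole libraries the 1 member higher and 2 lower stood against 7.49% and 8.29% of 19584 genes (15.8% in either direction). In round spermatid-like cells 1 higher and 2 lower stood against 3.25% and 2.92% (6.17% in either direction), and in elongating ones 1 and 1 stood against 2.23% and 0.924% (3.16%). Member medians of -0.18, -0.43 and -0.26 stood beside -0.06, -0.14 and -0.03 over all genes. Of the enzymatic elongating spermatid-like cells 71.5% were in cluster 23, although both enzymatic libraries held 0 CPM of the hemoglobin genes that lead it. Outside it Odf1 stood at 3787 and 1438 CPM in WT1 and WT2 against 175 to 567 CPM, so it was as high without that cluster, and within it 831 CPM in WT2 stood against 176 CPM in WT3. Smcp outside it stood at 7946 and 11572 CPM against 12574 to 17398 CPM, and its call was then lost (-0.64, adjusted p = 0.0638). Of 36 pathway genes tested over whole libraries 0 rose and 5 fell (Tssk4, Sept12, Azin1, Ybx3 and Pabpc1), of 32 in round spermatid-like cells 1 rose and 2 fell, and of 34 in elongating ones 1 rose and 1 fell, shares of 13.9%, 9.38% and 5.88% beside those of all genes above. In round spermatid-like cells Tssk4 fell by 1.40 (adjusted p = 4.11e-05) and Odf3l1 by 0.76 (adjusted p = 0.0253), and Oaz2, the antizyme of most tissues beside Oaz1, rose by 0.97 (adjusted p = 0.0117). In elongating ones Odf3b fell by 1.14 (adjusted p = 0.0336) and Gpx4 rose by 0.89 (adjusted p = 0.00429).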

How the data were processed

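Drop-seq libraries of dissociated mouse testes and of sorted germ cells were used. The authors deposited 1 table per library of UMI counts per gene and cell barcode, not normalized. Per the submitters' processing notes and the study's methods, reads were aligned with STAR 2.5.3a to mm10 with GRCm38 annotation. UMI counts capture 3′ ends and were not scaled by length, so levels were not ordered between genes. Drop-seq counts can hold free RNA from broken cells.

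Barcodes with at least 200 UMIs and 50 genes were kept as cells (44404 of 48642). Those more than 1 SD below the mean UMIs or genes per barcode of their library were dropped, as were those whose square root of the share of mt-Rnr2, divided by its SD, was above 2, which left 36622. Doublets were not called. Cells were clustered without the 43 member and pathway genes, on square-root shares of 19332 genes (40 principal components, 20 neighbours, leidenalg 0.10.2 at resolution 2, 47 clusters), and clusters were named from listed markers or left unnamed. Counts were summed per library over all barcodes, and per library and class where it had at least 10 cells. Sums were tested in R 4.3.3 with edgeR 4.0.16 (TMM, genes with at least 5 counts over the libraries of a fit, trended dispersion, robust quasi-likelihood test, Benjamini-Hochberg adjustment over all genes tested, threshold 0.05). All strains shared 1 estimate of the spread, and stage tests had the library as a block. Each SE is the absolute log2 change over the square root of the test's F statistic, whose spread is drawn partly from all genes. An SE or p-value therefore does not measure a gene's own spread between libraries alone. Alternatives were DESeq2 1.42.0, other filters, scalings, cell minimums and clusterings, HiSeq libraries only, a replicate block and leaving out each library. For dissociation over whole libraries the sequencer was also taken as a covariate. On simulated counts with a log2 change of 1, the test recovered 77% of changed genes for Mlh3-/- and 50% for Cul4a-/- over whole libraries, 33% for enzymatic dissociation, 58% for Cul4a-/- in elongating and 13% for CNP in round spermatid-like cells. Every simulated gene had a dispersion of 0.05, changed genes held at least 200 counts, and unchanged genes differed between libraries by depth only. These percentages therefore do not cover genes with few counts or the real spread between libraries.

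The genes, lists and tests were chosen with earlier results of these data known. Named pathway genes were up to 3 per list and comparison with the largest absolute log2 change among those past the threshold, and for each member the 3 genes with the highest correlation of log2(CPM + 10). Azin2 of the polyamine list was not found among the symbols. The labels did not say that libraries of a mutant strain came from separate mice, so p-values there measure the spread between libraries, which may be technical. Intervals and floors (3 counts) cover counting error only.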

Additional observations from a re-analysis of the deposited data

Results flagged for a closer look

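For each gene, the highest and the lowest library of every group of 4 to 10 libraries were compared with the others of their group. In 14 of 62 groups 1 library stood apart by Dixon's 95% criterion. Its rate of about 1 in 20 groups by chance holds for values that vary continuously. In several of the Mlh3-/- groups given last, all UMIs came from a single library, which the criterion marks however few they are. The 14 groups therefore cannot be compared with that rate.

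WT4 stood apart in 2 genes. Odf1 over its whole library was 103 CPM while the other 8 mechanical wild-type libraries lay at 211 to 321 CPM. Odf3 in its elongating spermatid-like cells was 443 CPM against 201 to 302 CPM in the others. Odf1 was also lowest in WT4 in round and in elongating spermatid-like cells.

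WT3 stood apart in meiotic division-like cells, of which it held 18. Smcp was 4469 CPM against 1144 to 1841 CPM, Oaz3 1494 CPM against 382 to 541 CPM, Odf1 237 CPM against 46.8 to 115 CPM, and Odf4 was low at 251 CPM against 294 to 326 CPM. WT5 had the highest Odf4 in pachytene-like cells, 347 CPM from 8 UMIs, against 214 to 280 CPM.

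The remaining 7 rested on 1 or 2 UMIs in Mlh3-/- libraries. In Mlh3_1 the whole library gave 1.16 CPM of Odf1 and 1.16 CPM of Odf3 from 1 UMI each, and its Leydig-like cells gave 3.71 CPM of Oaz3 from 2 UMIs and 1.86 CPM each of Odf1 and Odf3 from 1 UMI. In Mlh3_2, Sertoli-like cells gave 15.2 CPM of Oaz3 from 1 UMI. In Mlh3_6, pachytene-like cells gave 0.578 CPM of Odf3 from 1 UMI.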

How the results depend on the processing

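Counts of members past the threshold, leaving out each library in turn, ran from 0 to 4 for enzymatic dissociation over whole libraries, from 1 to 5 in round and 1 to 4 in elongating spermatid-like cells. The low and high ends were without WT1 and WT2 in all of these. They stayed at 6 for Mlh3-/- and 0 for Cul4a-/- over whole libraries, ran from 0 to 3 for CNP (1 without WT4, 3 without Mlh3_2, 1 without Mlh3_3), from 4 to 5 (Mlh3-/-), 0 to 2 (Cul4a-/-, 1 without WT6 and 2 without CNP_1 or CNP_2) and 0 to 1 (CNP, without CNP_1 or CNP_2) in pachytene-like cells, from 0 to 3 (Cul4a-/-) and 0 to 0 (CNP) in round and from 0 to 3 for both in elongating spermatid-like cells, and were 6, 5 and 6 at the stage steps. A library left alone in its group was assumed to vary like the other groups. For dissociation in elongating spermatid-like cells 1 member passed with 50 cells per class and 1 without the hemoglobin-led cluster, against 2. For CNP over whole libraries 3 passed with DESeq2, 3 with filterByExpr and 2 with HiSeq libraries only, against 0. With 50 cells per class 3 passed for Cul4a-/- and 2 for CNP in pachytene-like cells, against 0. For Cul4a-/- in elongating spermatid-like cells 1 passed with DESeq2 and 1 with filterByExpr, against 3. Odf4 between round and meiotic division-like cells (not called, near 0) reversed to 0.29 with DESeq2 (adjusted p = 5.2e-05) 0.00114 with filterByExpr (adjusted p = 0.99) and 0.0581 without the meiotic cluster nearest to round spermatids, and ran from -0.0874 to 0.0313 leaving out a library, the last without WT8. In elongating spermatid-like cells Odf2 in Cul4a-/- reversed to -0.14 with library totals, and Odf3 to -0.222 with library totals, -0.00957 with DESeq2 and -0.0194 with filterByExpr (from -0.0273 without Cul4a_2 to 0.196 leaving out a library). Odf2 there reversed to 0.0194 with library totals in CNP (-0.934 without CNP_1 to 0.168 without CNP_2) and to -0.4 with 50 cells per class for dissociation (-0.4 without WT1 to 0.647 without WT2, the latter called). The changes of members past an unadjusted p of 0.05, of all members in the stage and Mlh3-/- comparisons and of 6 others given in the text were recomputed under the alternatives. Of these 1213 kept direction and call, 39 lost the call, 41 gained it and 13 reversed. Where no cause is named, the cause was not tested.

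Counts over all genes moved by more than 1.5 times in elongating spermatid-like cells for dissociation (386 to 157 with DESeq2, 102 with filterByExpr and 621 with the UMI and gene minimum only), over whole libraries for Cul4a-/- (1114 to 1992 with HiSeq only and 491 with all 11 wild-type libraries) and CNP (200 to 691, 440, 461 and 105), in pachytene-like cells for Mlh3-/- (1300 to 859, 623 and 722), Cul4a-/- (40 to between 15 and 271) and CNP (65 to 107), in round spermatid-like cells for Cul4a-/- (2634 to 1201 and 1585) and CNP (167 to 100 and 51), in elongating ones for Cul4a-/- (1203 to 509 and 691) and CNP (70 to 46, 23 and 43), and at the first stage step (7566 to 4762 with 50 cells).

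Mlh3-/- and wild-type libraries share replicate numbers, but same-numbered libraries did not deviate together (r from -0.236 to 0.0469 over 4 pairs), so they share a number only. With a replicate block 6 members passed over whole libraries and 4 in pachytene-like cells, with 9848 and 664 genes. No paired analysis was possible because no replicate number was shared by Cul4a-/- or CNP and mechanical wild-type libraries. Dissociation in round spermatid-like cells with 50 cells per class could not be fitted, since no enzymatic library was left. The library scaling and the leaving out of the hemoglobin-led and of the meiotic cluster were chosen after seeing the data. Depth limits the 3 adult sorted libraries (107117 to 262054 UMIs), WT1 (357235 UMIs) and pachytene-like Odf1 and Odf3, which rest on 35 and 33 UMIs over 9 wild-type libraries.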

Other observations

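Among the clusters left unnamed for having under 3 markers of a class, cluster 1 with 6087 cells held Smcp at 6062 CPM and Odf2 at 3109 CPM. Cluster 19, with 569 cells and a median of 5954 UMIs per cell, held Odf2 at 1444 CPM, Smcp at 92.6 CPM and Odf3 at 3.54 CPM. The 3 elongating spermatid-like cells of Mlh3-/- libraries, all in cluster 23, had 0 UMIs of all 6 genes. They were the only spermatid-like cells of this strain. They came from Mlh3_5 and Mlh3_6, which held hemoglobin genes at 607 and 295 CPM, and such genes led cluster 23.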
